A study of Mus musculus with 10 samples.

Results

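Synaptotagmins are membrane proteins with paired C2 domains, and 10 of their genes (Syt1, Syt2, Syt3, Syt4, Syt5, Syt6, Syt7, Syt11, Syt13 and Syt17) were followed in the cortex of Alzheimer's disease model mice with and without a neuronal deletion of Idol. The genes were taken by name from the 53700 gene identifiers of the deposited counts. Each symbol matched 1 Ensembl identifier. Syt2 (ENSMUSG00000026452) lies on the plus strand of GRCm39 at chr1:134574290-134690331, Syt1 on the minus strand at chr10:108333505-108846856 and Syt5 on the minus strand at chr7:4542756-4550922. All 10 passed the filter on low counts that left 19268 genes for testing. The libraries came from 10 female mice aged 4 months, and all of them carried the 5XFAD transgenes, which are human genes with mutations of familial Alzheimer's disease. In 5 libraries, labelled 5XFAD;Neu cKO here, a Cre recombinase under the Camk2a promoter was set to remove floxed Idol (Mylip), the E3 ligase that targets the LDL receptor for degradation. The other 5, labelled 5XFAD, came from littermates whose genotype label reads WT for this cross. The Camk2a promoter is active mainly in excitatory forebrain neurons, so glia and most inhibitory neurons would keep the gene in this model. Every mouse carried the amyloid transgenes, so no comparison with mice lacking amyloid pathology can be made.

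Synaptotagmins link calcium to the fusion of vesicles. Calcium that enters a nerve terminal binds the C2 domains of the vesicle-bound sensors, which then act on SNARE proteins and on the plasma membrane to drive release quickly or with a delay, depending on the isoform. Syt1 is the main fast sensor of forebrain synapses, and Syt2 serves the same role at fast synapses of the brainstem and spinal cord and in cortex at the terminals of parvalbumin-expressing basket cells. Other isoforms sit on dense-core vesicles, lysosomes, the Golgi or the plasma membrane, and several do not bind calcium.

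Reads on genes numbered 4320504 to 7466192 in the 5XFAD libraries and 5148499 to 7246659 in the 5XFAD;Neu cKO libraries. The counts came from 3′ tag libraries (QuantSeq), in which a transcript gives reads near its 3′ end whatever its length. Library-scaled levels (CPM, with TMM-adjusted library sizes) were therefore set side by side between genes without a correction for length. Of the reads on genes, ambiguous or on no annotated feature, 31.29% to 39.88% per library were on none. Whether genes differ in the share of reads lost this way was not tested. Mylip was measured at 14.8 ± 4.90 CPM (SD, n = 5) in the mice labelled as deleted and at 11.2 ± 2.27 CPM in the others (log2 fold change 0.39, SE 0.25, adjusted p = 0.777, edgeR). In these counts Mylip was thus not lower where the labels give its deletion, and the group names below follow the labels only. By qPCR, the authors report significantly less Idol RNA in the cortex of neuronal knockout mice than in that of controls. Why the counts did not show this decrease was not tested, so they do not decide whether the deletion took place. Neuronal RNA was read in every library. The 7 genes of the pan-neuronal list (Map2, Rbfox3, Nefl and others) summed to 2214 to 2487 CPM in 5XFAD;Neu cKO libraries and 2341 to 2821 CPM in 5XFAD libraries. Genes of the thalamus and striatum lists were also read, at sums of 70.7 to 104 CPM and 481 to 749 CPM over all libraries.

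Syt2 is the member whose level differed past the threshold, so its promoter windows are shown here. RefSeq (windows tabulated on GRCm38.p6) gives 300 bases around each annotated start, 250 before and 50 after, and both Syt2 windows were found unchanged on the plus strand of GRCm39, at chr1:134574100-134574399 and chr1:134636788-134637087. Capitals mark the GC box GGGCGG on either strand (CCGCCC on the other), the element bound by Sp1-type factors, and the CRE core motif TGACG, a part of the element bound by CREB, on either strand.

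Syt2 upstream start: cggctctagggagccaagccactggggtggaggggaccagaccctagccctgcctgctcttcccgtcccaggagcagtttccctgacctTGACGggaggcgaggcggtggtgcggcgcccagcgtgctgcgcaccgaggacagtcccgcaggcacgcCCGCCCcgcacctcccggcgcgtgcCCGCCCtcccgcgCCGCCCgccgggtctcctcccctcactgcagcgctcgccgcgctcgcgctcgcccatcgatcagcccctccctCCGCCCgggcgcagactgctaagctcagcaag
Syt2 downstream start: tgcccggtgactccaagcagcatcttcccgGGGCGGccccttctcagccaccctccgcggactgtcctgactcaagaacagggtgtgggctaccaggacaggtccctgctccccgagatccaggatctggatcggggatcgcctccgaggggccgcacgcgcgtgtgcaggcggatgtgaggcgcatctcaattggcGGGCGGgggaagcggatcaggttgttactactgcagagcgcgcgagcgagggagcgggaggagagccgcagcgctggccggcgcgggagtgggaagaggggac

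The upstream window held 4 GC boxes and 1 CRE core motif, and 74.3% of its bases were G or C. The downstream window held 2 GC boxes and had a GC content of 68.3%. Over the 32851 promoter windows of the table the median GC content was 52.7%, 35.7% of windows held at least 1 GC box and 20.8% held at least 1 CRE core motif. Of the other members, Syt1, Syt3, Syt6 and Syt11 had windows in the table, which made 9 windows for 5 members in all. The 2 windows of Syt1, the gene closest to Syt2 in role, held 0 and 1 GC boxes at a GC content of 44.0% and 56.7%. The windows of Syt6 held 2, 3 and 2 GC boxes at 61% to 65.7%. The Syt3 window held 0 at 66.3%, and the Syt11 window held 2 at 53%. These matches describe the letters alone and carry no measurement of binding.

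The levels of the 10 genes spanned more than 2 orders of magnitude, and Syt1 stood at the top. Averaged over all 10 libraries, Syt1 was read at 3036 ± 285 CPM (SD), Syt11 at 1377 ± 99.2, Syt4 at 341 ± 29.5 and Syt7 at 278 ± 22.4 CPM. Syt5 followed at 189 ± 22.8, Syt13 at 140 ± 16.9 and Syt2 at 47.4 ± 13.5 CPM. Syt17 (24.6 ± 3.80), Syt3 (20.6 ± 2.30) and Syt6 (19.4 ± 6.15 CPM) closed the order. Each gene from Syt1 down to Syt2 lay above the next in order in 10 of 10 libraries. The last 3 were not separable, since Syt17 exceeded Syt3 in 8 of 10 libraries and Syt3 exceeded Syt6 in 5 of 10. Of the reads on the 10 genes, Syt1 took 53.2% to 58.2% and Syt11 23.5% to 27.0% in every library.

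**Figure D1:**
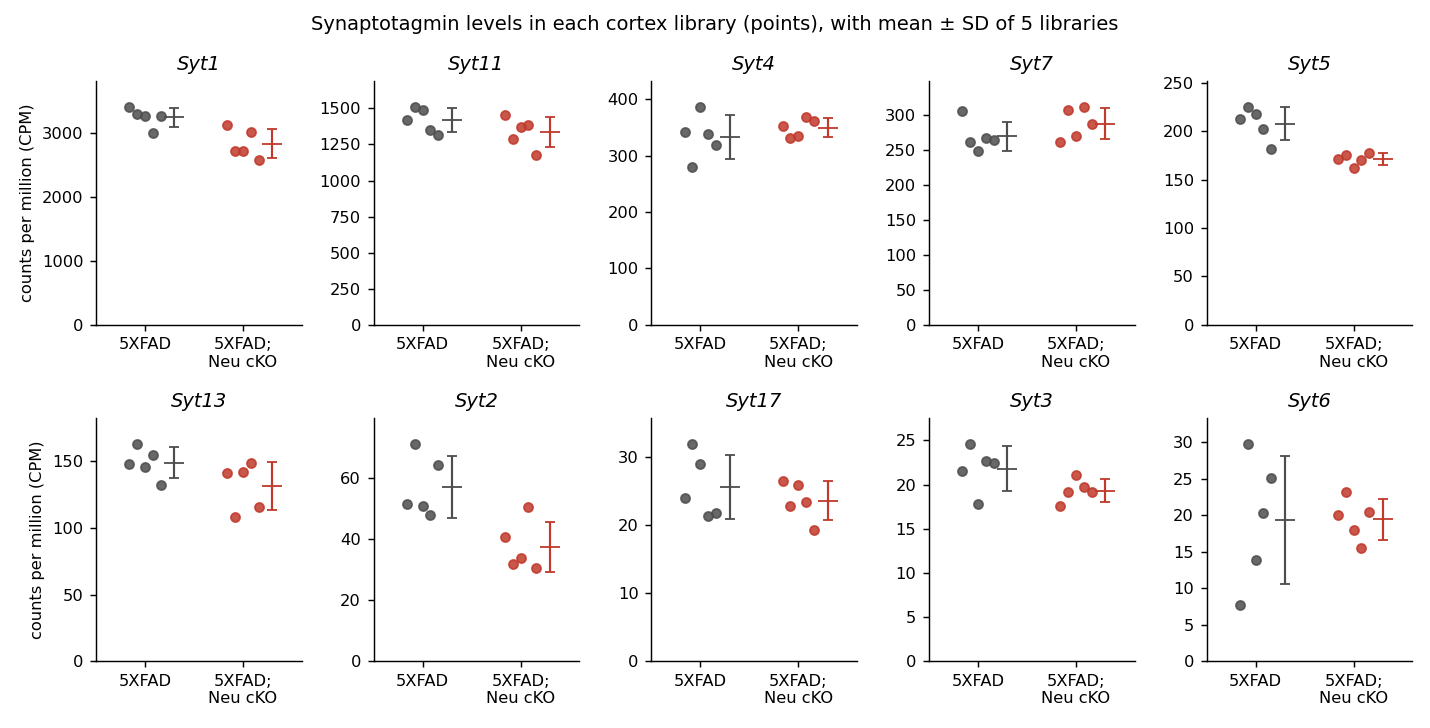
CPM of each synaptotagmin in the 10 cortex libraries, in order of mean level. Each point is 1 library (5 of 5XFAD in grey, 5 of 5XFAD;Neu cKO in red), the bar beside the points is the mean ± SD of 5 libraries, and every vertical axis starts at 0. Syt2 and Syt5 show the clearest offset between groups, and the 5XFAD libraries of Syt6 spread from 7.75 to 29.8 CPM.

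Between the groups, 1 of the 10 synaptotagmins passed the threshold of an adjusted p under 0.05 (edgeR's quasi-likelihood test, Benjamini-Hochberg adjustment over 19268 genes), and it was lower in 5XFAD;Neu cKO. Over all genes tested, 0.218% passed. Before adjustment, 3 of the 10 (Syt1, Syt2 and Syt5) had a p under 0.05, against 7.95% of all genes. DESeq2, the tool the authors used, left an adjusted p to 5820 genes, Syt3 and Syt6 not among them, and 1.25% of the 5820 passed. The same 3 members (Syt1, Syt2 and Syt5) passed its adjusted threshold. All 3 are on the authors' own list of changed genes, which was drawn up from these same libraries, so their passing again is no independent evidence. The log2 fold change was below 0 for 7 of the 10 members and for 50.1% of all genes, with a median of -0.15 for the members and -0.00056 for all genes.

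**Figure D2:**
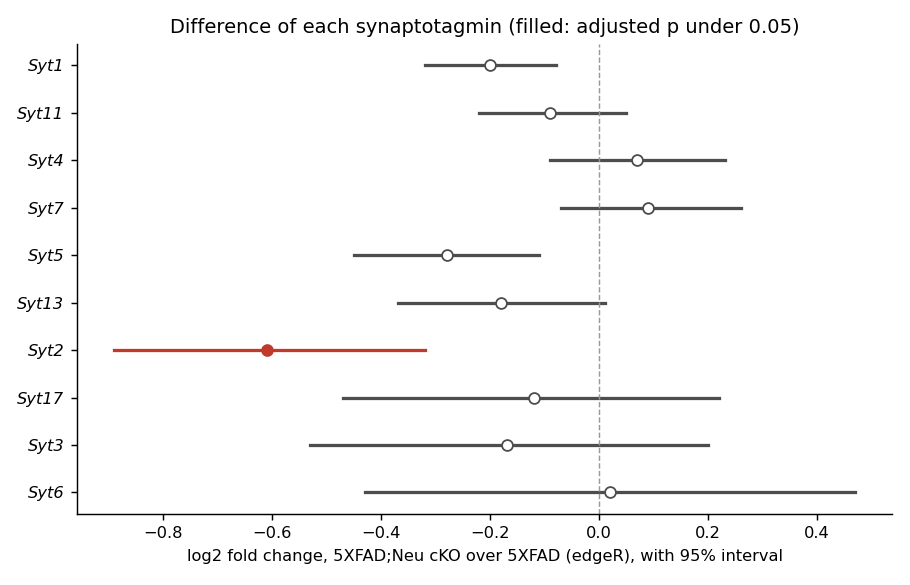
Log2 fold change (5XFAD;Neu cKO over 5XFAD, edgeR) of each synaptotagmin on the horizontal axis, with its 95% interval as a line. The filled red point is Syt2 at -0.61, the only member past the adjusted threshold, and the intervals of Syt1 and Syt5 also lie below 0.

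Syt2, the fast calcium sensor of parvalbumin basket cell terminals in cortex, fell in 5XFAD;Neu cKO. In 5XFAD replicates 1 to 5 it was measured at 51.7, 71.3, 50.8, 47.9 and 64.4 CPM (257 to 374 reads). In 5XFAD;Neu cKO replicates 1 to 5 it was at 40.8, 32.0, 34.0, 50.5 and 30.5 CPM (174 to 300 reads). Replicates 1, 2, 3 and 5 of 5XFAD;Neu cKO lay below every 5XFAD library, and replicate 4 overlapped with the lower end of the 5XFAD range. The means were 37.5 ± 8.23 and 57.2 ± 10.1 CPM (SD, n = 5 each), a fold of 0.657 with a 95% interval of 0.539 to 0.800 (log2 fold change -0.61, SE 0.14, adjusted p = 0.0388, edgeR). In this bulk tissue, fewer cells or terminals that express a gene and less of its RNA per cell cannot be told apart.

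The direction of the Syt2 difference held in each of the 17 other fits, but its call did not. Leaving out 1 library at a time, the log2 fold change ranged from -0.74 to -0.52 and 5 of the 10 fits passed. The call was lost without 5XFAD replicate 2 (adjusted p = 0.246) or 5 (0.106), and without 5XFAD;Neu cKO replicate 2 (0.130), 3 (0.160) or 5 (0.228, all edgeR). It was also lost under edgeR's own filter on low counts (adjusted p = 0.0734). Between libraries Syt2 varied by 21.9% (coefficient of variation) in 5XFAD;Neu cKO and 17.7% in 5XFAD, where counting alone would give 6.56% and 5.79%.

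**Figure D3:**
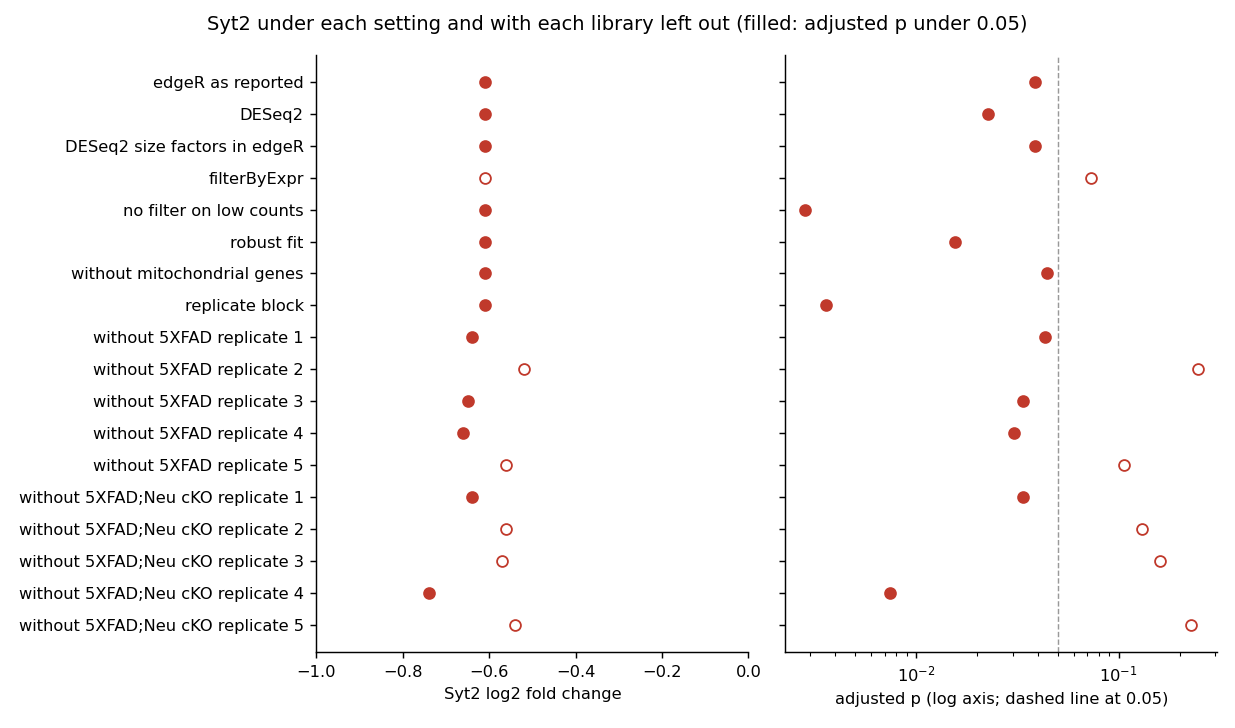
Syt2 under each way of fitting the counts and with each library left out (rows). The left panel gives its log2 fold change and the right panel its adjusted p on a log axis with a dashed line at 0.05. Filled points passed, and open points, the highest at 0.246 without 5XFAD replicate 2, did not.

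Syt1, the main fast sensor of excitatory and inhibitory forebrain terminals, was measured at 3401, 3299, 3257, 2998 and 3270 CPM in 5XFAD replicates 1 to 5. In 5XFAD;Neu cKO replicates 1 to 5 it was at 3120, 2718, 2709, 3007 and 2579 CPM. All 5 of the latter lay below the 5XFAD mean, while replicates 1 and 4 were above the lowest 5XFAD library. The fold was 0.871 with a 95% interval of 0.800 to 0.948 (log2 fold change -0.20, SE 0.06, adjusted p = 0.252 by edgeR and 0.0483 by DESeq2). With 14059 to 23973 reads in each library, counting error was below 1% (0.754% in 5XFAD;Neu cKO), and the libraries of a group differed by 8.01% (5XFAD;Neu cKO) and 4.60% (5XFAD).

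Syt5, found on synaptic and dense-core vesicles, was the 1 member whose groups did not overlap, as was the case for 1.30% of all genes. Its name has been exchanged with that of Syt9 in part of the literature, so its role is given here with that reserve. It was measured at 213, 225, 218, 202 and 182 CPM in 5XFAD replicates 1 to 5 and at 171, 175, 162, 170 and 178 CPM in 5XFAD;Neu cKO replicates 1 to 5. The highest 5XFAD;Neu cKO library was thus just below the lowest 5XFAD library. The fold was 0.823 with a 95% interval of 0.730 to 0.927 (log2 fold change -0.28, SE 0.09, adjusted p = 0.248 by edgeR and 0.0226 by DESeq2). The 5XFAD;Neu cKO libraries varied by 3.55%, close to the 3.06% that counting gives, and the 5XFAD libraries by 8.05%.

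Syt7, Syt3 and Syt6 were not past the threshold. Syt7, a high-affinity sensor of asynchronous release and facilitation, ranged from 249 to 305 CPM in 5XFAD and from 261 to 311 CPM in 5XFAD;Neu cKO. Its fold was 1.07 with an interval of 0.951 to 1.19, and 4 of 5 libraries lay above the 5XFAD mean (adjusted p = 0.877, edgeR). Syt3 and Syt6 belong to the disulphide-linked group of plasma membrane synaptotagmins, and Syt6 is also read in layer 6 corticothalamic neurons. Syt3 ranged from 17.8 to 24.6 CPM in 5XFAD and from 17.6 to 21.1 CPM in 5XFAD;Neu cKO (fold 0.889, interval 0.691 to 1.15, adjusted p = 0.912, edgeR). Syt6 was the most uneven member, at 7.75, 29.8, 13.9, 20.3 and 25.1 CPM in 5XFAD replicates 1 to 5 and 15.6 to 23.2 CPM in 5XFAD;Neu cKO. The 5XFAD libraries varied by 45.3%, where counting gives 10.1%, and replicate 1 was lowest with 40 reads. Its fold of 1.01 had an interval of 0.743 to 1.38 (adjusted p = 0.995, edgeR). The 5 genes of the layer 6 list (Foxp2, Tle4, Hs3st4, Rprm and Ntsr1) summed to 270 to 292 CPM in the 5XFAD libraries, with 287 CPM in replicate 1.

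Syt4 and Syt11 form a pair whose first C2 domain carries a substitution at a calcium-binding residue. Syt4, an activity-regulated protein of dense-core vesicles, ranged from 279 to 386 CPM in 5XFAD and from 331 to 369 CPM in 5XFAD;Neu cKO (fold 1.05, interval 0.937 to 1.17, adjusted p = 0.929, edgeR). Syt11, which acts in membrane trafficking and does not trigger release, ranged from 1319 to 1509 CPM and from 1179 to 1454 CPM (fold 0.942, interval 0.858 to 1.03, adjusted p = 0.858, edgeR). The groups overlapped for both genes. The other members with an antisense partner in the counts (Syt3, Syt4, Syt6 and Syt13) had partners counted 0 to 12 times. Syt11 shares 497 exon bases with Rit1 on the opposite strand, and Rit1 was counted 68 to 114 times against 5879 to 10952 for Syt11.

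Syt13 and Syt17 are atypical members, neither of which is known as a calcium sensor for release. Syt13 ranged from 132 to 163 CPM in 5XFAD and from 108 to 149 CPM in 5XFAD;Neu cKO, where replicates 2 and 5 lay below all 5XFAD libraries. Its fold was 0.882 with an interval of 0.771 to 1.01 (adjusted p = 0.677, edgeR). Syt17, a peripheral protein of the Golgi and endosomes that has no transmembrane segment, ranged from 21.3 to 31.9 CPM and from 19.2 to 26.4 CPM (fold 0.919, interval 0.723 to 1.17, adjusted p = 0.952, edgeR).

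The other 7 genes named as synaptotagmins (Syt8, Syt9, Syt10, Syt12, Syt14, Syt15 and Syt16) gave no call. Syt8 and Syt15 had too few reads to be tested (0 and 0 to 7 per library). The 5 tested genes all had a log2 fold change below 0, with a median of -0.16, and their smallest unadjusted p-values were those of Syt10 (log2 fold change -0.66, adjusted p = 0.798, edgeR) and Syt14 (-0.14, adjusted p = 0.909, edgeR). Of 12 further C2 domain proteins (Doc2, rabphilin, synaptotagmin-like and extended synaptotagmin genes), 11 were tested and 0 passed. The median of that list was -0.08, and Esyt2 (0.29, adjusted p = 0.730, edgeR) and Sytl2 (0.20, adjusted p = 0.871, edgeR) had its smallest p-values. In both lists 0 genes had an unadjusted p under 0.05, and DESeq2 called 0. DESeq2 left an adjusted p to 5820 genes only, and Syt3, at 94 to 161 reads, was left without one. Genes with fewer reads than Syt3, such as Syt10 (11 to 64 reads), could thus not be called by DESeq2, here or in later lists.

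Of 22 genes of the release machinery on which synaptotagmins act, all were tested and 1 fell. This was Sv2c, a vesicle glycoprotein of the family that binds synaptotagmins. It was measured at 47.1, 55.4, 46.6, 58.3 and 76.3 CPM in 5XFAD replicates 1 to 5 and at 32.9, 26.9, 35.2, 34.2 and 40.8 CPM in 5XFAD;Neu cKO replicates 1 to 5, and the groups did not overlap. Its log2 fold change was -0.73 (SE 0.14, adjusted p = 0.00353, edgeR). The next smallest p-values were those of Sv2a (-0.27, adjusted p = 0.161) and Snap25 (0.25, adjusted p = 0.287, both edgeR), a SNARE protein that binds Syt1 and lay above 0. The list had 13 genes below 0 and 9 above, and its median was -0.02. The remaining SNARE and priming genes, among them Stx1a, Vamp2, Cplx1 and Unc13a, had log2 fold changes between -0.45 and 0.17, and 0 of them passed. Without adjustment, a p under 0.05 (edgeR) was found for 5 genes of the list. They were Sv2c, Sv2a, Snap25, Unc13c (log2 fold change -0.30) and Rims1 (-0.19). DESeq2 called Sv2c and Sv2a.

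Syt2 was set against markers of the cells that carry it. Of 7 genes of parvalbumin interneurons, 0 passed, 4 lay below 0 and 3 above, and the median was -0.04. Pvalb itself, the calcium buffer that names these cells, was at 30.0, 51.6, 28.5, 33.4 and 23.8 CPM in 5XFAD and at 36.1, 29.4, 46.2, 36.0 and 37.3 CPM in 5XFAD;Neu cKO (log2 fold change 0.15, SE 0.16, adjusted p = 0.909, edgeR). Lhx6, a transcription factor of interneurons from the medial ganglionic eminence (1.04, adjusted p = 0.445), and Tac1 (-0.28, adjusted p = 0.445, both edgeR) had the smallest p-values of this list. Lhx6 rested on 6 to 57 reads in a library (SE 0.40). Among 8 general inhibitory markers 0 passed, with a median of -0.06, and the smallest p-values were those of Vip (-0.42, adjusted p = 0.475) and Gad1, a GABA-synthesising enzyme (0.22, adjusted p = 0.553, both edgeR). For Gad2 the log2 fold change was 0.10 (adjusted p = 0.909, edgeR). Without adjustment, a p under 0.05 was found for 2 genes in each of these lists, and DESeq2 called 0 in both.

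Within each library, the ratio of Syt2 reads to those of other genes does not depend on library size. For each 100 reads of Pvalb, the 5XFAD libraries held 172, 138, 178, 144 and 271 reads of Syt2 and the 5XFAD;Neu cKO libraries 113, 109, 73.6, 140 and 81.5. Replicate 4 of 5XFAD;Neu cKO was the one library that reached into the 5XFAD range. The mean log2 ratio was 0.01 ± 0.38 in 5XFAD;Neu cKO and 0.81 ± 0.39 in 5XFAD, a difference of -0.80 (p = 0.0159, two-sided exact permutation test over 252 relabellings of the libraries).

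For each 100 reads of Gad1 plus Gad2, the 5XFAD libraries held 14.2 to 32.7 reads of Syt2 and the 5XFAD;Neu cKO libraries 8.95 to 15.6. The mean log2 ratios were -3.17 ± 0.33 in 5XFAD;Neu cKO and -2.37 ± 0.50 in 5XFAD, a difference of -0.80 (p = 0.0238, same exact permutation test). For each 100 reads of Syt1 there were 1.52 to 2.16 and 1.18 to 1.68 reads of Syt2, and the difference of the log2 ratios was -0.42 (p = 0.0317, same exact permutation test). The difference of Syt2 to Syt1 was at p = 0.0635 (exact permutation test) when 5XFAD;Neu cKO replicate 1, 2, 3 or 5 was left out. The Benjamini-Hochberg value over the 3 ratios was 0.0317 for each, from the same exact permutation tests. These ratios use the same Syt2 counts as the fit and add no independent evidence.

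**Figure D4:**
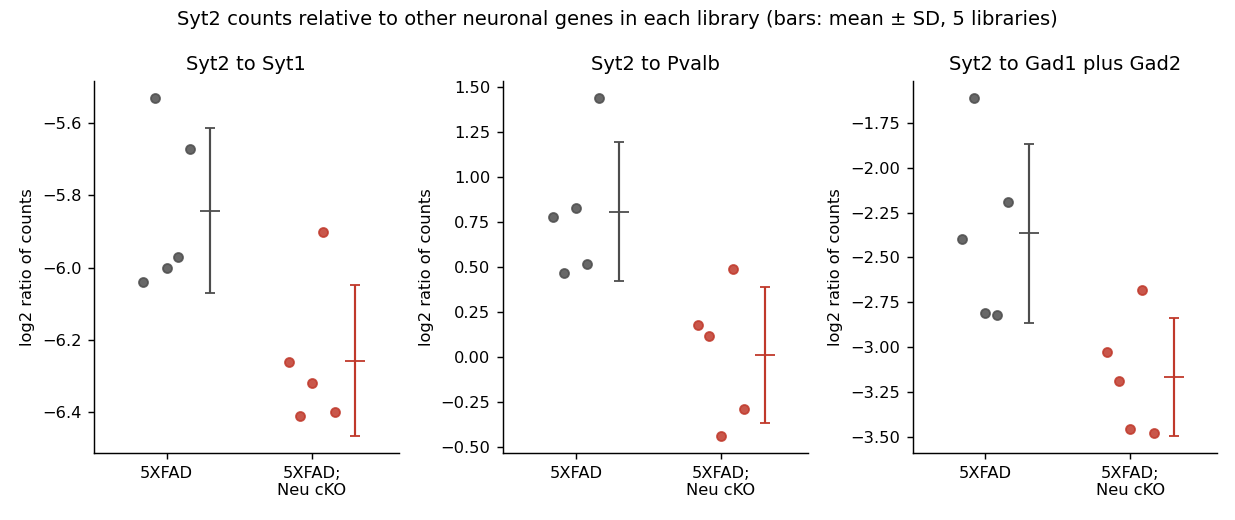
Log2 ratio of Syt2 counts to Syt1, to Pvalb and to Gad1 plus Gad2 in each library (points), with the mean ± SD of 5 libraries beside them. The vertical axes are log2 scales that do not start at 0. In each panel the 5XFAD;Neu cKO mean is lower, and the groups overlap.

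Other cell types were read beside the Syt2 result. All 8 microglial genes lay below 0 and 4 fell (Csf1r, Cx3cr1, C1qb and C1qc, log2 fold changes of -0.65, -0.51, -1.21 and -0.82). The sum of the microglial list was 241 to 285 CPM in 5XFAD;Neu cKO and 314 to 459 CPM in 5XFAD. Of 6 astrocyte genes 1 fell (Gfap, -0.88, adjusted p = 0.00202, edgeR), and the list summed to 3322 to 3838 and 3426 to 4043 CPM. All 6 oligodendrocyte genes lay below 0 with a median of -0.28, 0 passed, and Mobp (-0.43, adjusted p = 0.0662) and Mbp (-0.28, adjusted p = 0.270, both edgeR) came nearest. Of 4 endothelial genes 0 passed, with a median of 0.02, and Pecam1 (0.08) and Ly6c1 (-0.04) had the smallest p-values. Without adjustment, a p under 0.05 was found for 7 microglial, 3 astrocyte, 4 oligodendrocyte and 0 endothelial genes, and DESeq2 called Csf1r, Cx3cr1, C1qc and Gfap. C1qb, at 58 to 193 reads, was not among the DESeq2 calls, and whether DESeq2 gave it an adjusted p is not reported here. None of these lists had a defining gene at 0 in all libraries, and their part in the Syt2 result was not tested.

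Among neuronal lists, 0 genes passed in the excitatory list (6 genes, median -0.02), the layer 6 list (5 genes, 0.02) and the pan-neuronal list (7 genes, -0.07). The smallest p-values there were those of Neurod2 (0.32, adjusted p = 0.274) and Neurod6 (-0.13, 0.914), of Ntsr1 (0.64, 0.893) and Foxp2 (0.08, 0.957), and of the neurofilament genes Nefh (-0.35, 0.333) and Nefm (-0.20, 0.606, all edgeR). Ntsr1 rested on 2 to 25 reads in a library (SE 0.61). Syt2 is also read in neurons outside the cortex, so the thalamus and striatum lists were set beside it. Both had 0 genes past the threshold, with medians of -0.09 (5 genes) and -0.03 (6 genes). Without adjustment, a p under 0.05 was found for 1, 0, 2, 1 and 0 genes in the excitatory, layer 6, pan-neuronal, thalamus and striatum lists, and DESeq2 called 0 in each. Slc17a6, the vesicular glutamate transporter of thalamic neurons, was at 38.4 ± 4.08 CPM in 5XFAD;Neu cKO and 50.5 ± 7.22 CPM in 5XFAD (log2 fold change -0.39, adjusted p = 0.369, edgeR). Tcf7l2 of the thalamus list had a log2 fold change of 0.15 and Ppp1r1b of the striatum list one of 0.12. The part of tissue dissection in the Syt2 result was not tested.

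**Figure D5:**
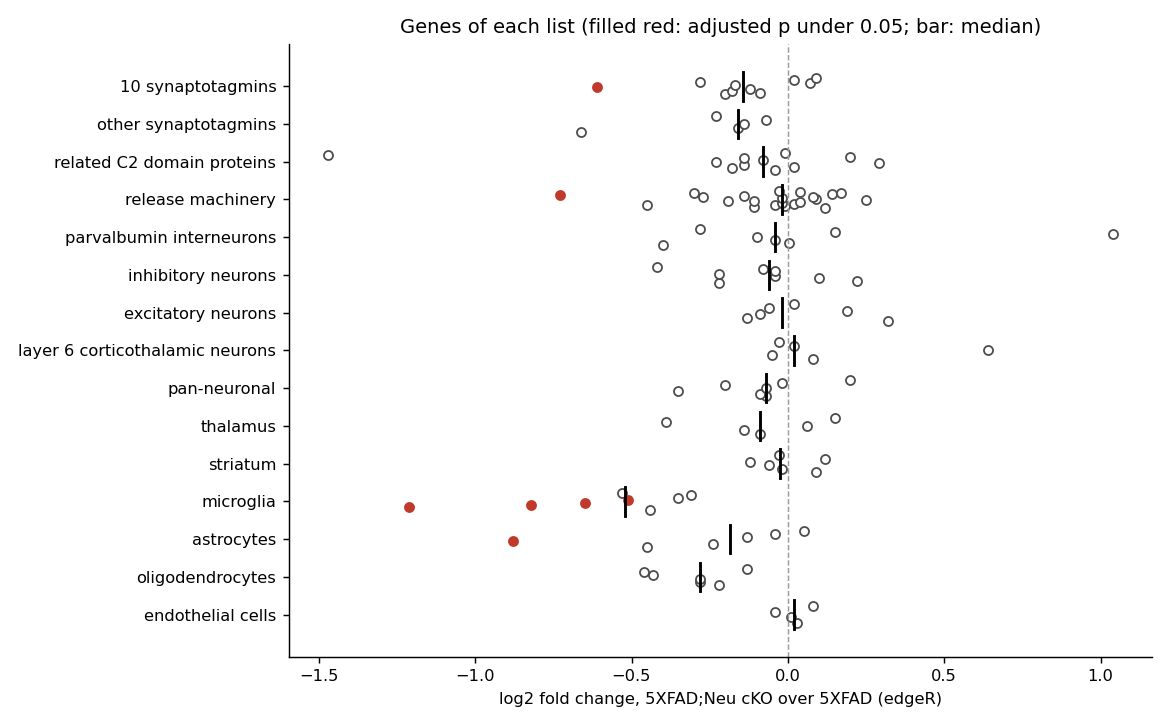
Log2 fold change (5XFAD;Neu cKO over 5XFAD, edgeR) of every tested gene of each list. Filled red points passed the adjusted threshold and black bars are list medians. Syt2 and Sv2c are the filled points of the top rows, and the other filled points are 4 microglial genes and Gfap.

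Within groups, after the group mean of log2 CPM was taken off, the level of Syt2 varied between libraries most like that of Stoml1 (Pearson's r = 0.92, Spearman's rho = 0.95 over 10 libraries) among 8831 genes with a mean of at least 10 CPM. Stmn4 (r = 0.91, rho = 0.94), Rims2 (0.90, 0.77), Dlgap4 (0.90, 0.72) and Ablim1 (0.90, 0.92) followed, and r was 0.73 to 0.84 for the 5 genes without the 2 libraries farthest from the median. Rims2 is a scaffold of the active zone that was also on the release list. Of the parvalbumin interneuron genes computed beside them, Kcnc2 reached r = 0.68 (rho = 0.54, r = 0.24 without the 2 farthest libraries), Kcnc1 0.60 (rho = 0.59, 0.73) and Pvalb 0.24 (rho = 0.03, -0.36). Slc17a6 reached 0.61 (rho = 0.71, 0.50) and Vamp1 0.51 (rho = 0.42, 0.29). For Nefh r was 0.31 (0.10 without the 2 farthest libraries) and for Sv2c 0.22 (0.36). For Gad1 r was -0.45 and for Gad2 -0.49, but without the 2 farthest libraries r was -0.11 and -0.20. These values are the top of a search over many genes that share library and depth, and they are given as a description.

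Among the 45 pairs of synaptotagmins the median r of the same deviations was 0.03. Syt11 and Syt17 were the most alike (r = 0.90, rho = 0.93), and Syt1 with Syt2 reached 0.70 (rho = 0.77), or 0.68 without the 2 libraries farthest from the median. Syt3 and Syt4 lay at the other end (r = -0.80, rho = -0.65), and r was -0.28 without the 2 farthest libraries, so that relation rests on them. All pairs share the same 10 libraries and their scaling.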

How the data were processed

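Cortical RNA of 10 mice was sequenced as QuantSeq 3′ libraries. The authors trimmed reads with bbduk, aligned them to GRCm39 with STAR 2.7.3a and assigned them to Ensembl genes with htseq-count (HTSeq 0.9.1 in the submitters' processing notes). They deposited raw counts per gene without normalization. The strand setting is not given in the sources used here, so genes that overlap on opposite strands are uncertain. Symbols came from GENCODE.

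Genes with a total count of 10 or less were removed, and 19268 were compared with edgeR 4.0.16 in R 4.3.3 (TMM, quasi-likelihood test, group as the only term, Benjamini-Hochberg, threshold 0.05). The edgeR and DESeq2 fits were run on simulated counts, where only the bias of the log2 fold change had to stay under a limit. That simulation did not cover the ratios, and its recovery of changed genes is not reported here. Alternatives were each library left out, DESeq2 1.42.0 or its size factors, filterByExpr or no filter, a block on replicate number, robust dispersions, and a table stripped of mitochondrial genes. Ratios were compared with exact permutation tests (scipy 1.17.1). Named from the gene lists were members past the threshold, otherwise the 2 with the smallest p, and genes used in a ratio. Some further genes are named to describe a list. Some genes that this rule covers are left unreported. The members, gene lists and tests were chosen with earlier results of these data known. Nothing in the sources used here gives litters or batches for these mice, so p-values measure the spread between libraries.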

Additional observations from a re-analysis of the deposited data

How the results depend on the processing

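The count of synaptotagmins past the threshold (1 in edgeR) was 3 with DESeq2, 3 at an unadjusted p under 0.05 (added after seeing the data), 0 with filterByExpr, and 0 to 1 with each library left out. All genes past the threshold numbered 42, 73 with DESeq2, 103 without a filter, 112 with the replicate block, 32 with filterByExpr, and 26 to 72 with each library left out. With the replicate block the adjusted p of Syt2 was 0.00360 (edgeR), and the count of synaptotagmins past the threshold stayed at 1. Same-numbered libraries correlated at -0.0782 to 0.0536 in their deviations from the group means. The best partner was never the library of the same number. With 5 libraries in each group, this check cannot settle whether the replicate numbers pair them. Over same-numbered pairs the ratios differed by -0.42 (to Syt1), -0.80 (to Pvalb) and -0.80 (to Gad1 plus Gad2), with exact sign-flip p-values of 0.125, 0.0625 and 0.125, where 0.0625 is the smallest that 5 pairs allow. Leaving out 1 library, these ratios ranged from -0.51 to -0.34, from -0.92 to -0.64 and from -0.92 to -0.61. Syt6, near 0, changed sign when 5XFAD replicate 1 (-0.18) or 3 (-0.09) or 5XFAD;Neu cKO replicate 2 (-0.05) or 5 (-0.0018) was left out, its range over all left-out libraries being -0.18 to 0.22, and the cause was not tested. DESeq2 gave no adjusted p for Syt3 and Syt6. For Syt3, at 94 to 161 reads, the spread between libraries (6.63% and 11.6%) was near that of counting (9.06% and 9.37%), so depth limits what could be detected. For Syt6, at 40 to 143 reads, the 5XFAD libraries varied by 45.3% where counting gives 10.1%, so the spread between libraries exceeds what depth gives.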
